A study of Rattus norvegicus with 40 samples.

Results

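Transcripts of 4 genes of blood vessel endothelium were followed through RNA sequencing libraries of microglia. The rule for them gives 4 Ensembl rat gene IDs, in the order Flt1 (ENSRNOG00000000940), Kdr (ENSRNOG00000046829), Vwf (ENSRNOG00000019689) and Tek (ENSRNOG00000008587). All 4 were among the 32883 IDs of the count table, and each had counts in all 40 libraries. The names are those the rule attaches to the IDs, since no table used here pairs an Ensembl rat ID with a symbol. Markers of endothelium, of microglia or of other cells could for the same reason not be set beside them.

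The microglia came from Sprague Dawley rats aged 8 weeks, by magnetic isolation with an antibody against CD11b, a surface protein of microglia and other myeloid cells, per the labels' protocols. Each of 20 animals gave a library from the medulla of the brainstem and a library from segments C3 to C6 of the cervical spinal cord. Their dams had breathed intermittent hypoxia, alternating 10.5% and 21% oxygen, or intermittent normoxia, 21% oxygen throughout, from gestational day 10 to 21, for 8 hours a day at 15 cycles an hour, and all offspring were born and raised in normal housing. Sex, exposure and region gave 8 groups of 5 libraries: male normoxia, male hypoxia, female normoxia and female hypoxia, each in medulla and in cord. Every group drew 1 animal from each of 5 litters, so a male and a female could share a litter, and the labels do not tie replicate numbers to litters.

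Endothelial cells line the vessels of the brain and spinal cord and carry receptors for growth factors that build and maintain those vessels. Kdr encodes VEGF receptor 2, the main signalling receptor for VEGF-A, and Flt1 encodes VEGF receptor 1, which binds the same ligand tightly and also exists as a soluble decoy. Tek encodes the angiopoietin receptor Tie2, which supports vessel stability and is also known from some myeloid cells. Vwf encodes von Willebrand factor, the clotting protein that endothelial cells store and that platelets bind. CD11b is not among the known markers of endothelial cells. In bulk RNA of this kind, fewer cells of a type and less RNA per cell cannot be told apart.

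The RefSeq promoter table, in build GRCr8, held entries for 2 of the 4 names, Flt1 and Kdr, the VEGF receptors whose counts are compared below. The 250 bases before each start are shown on the plus strand, which is the strand of both genes: chr12:12333180-12333429 for Flt1 and chr14:32571813-32572062 for Kdr. Capitals mark matches, on either strand, to the cAMP response element TGACGTCA, to ACGTG as the core bound by hypoxia-inducible factors, to CCGGAAG or CAGGAAG as forms of the ETS motif, and to the GC box GGGCGG.
Flt1: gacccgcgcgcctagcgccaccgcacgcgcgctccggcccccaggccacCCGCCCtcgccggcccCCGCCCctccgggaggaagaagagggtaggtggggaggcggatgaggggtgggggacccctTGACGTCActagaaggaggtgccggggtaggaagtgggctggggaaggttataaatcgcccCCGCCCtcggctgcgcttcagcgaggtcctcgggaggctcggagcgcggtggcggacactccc
Kdr: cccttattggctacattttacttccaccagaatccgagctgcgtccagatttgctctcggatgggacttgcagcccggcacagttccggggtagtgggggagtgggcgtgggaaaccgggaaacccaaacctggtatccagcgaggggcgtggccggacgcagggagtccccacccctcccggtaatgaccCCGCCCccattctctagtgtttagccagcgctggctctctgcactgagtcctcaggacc
The Flt1 window held the cAMP response element 1 time and the GC box 3 times, and the Kdr window held the GC box 1 time and the cAMP response element 0 times. Of all 33469 windows of this length in the table, 1.59% held the cAMP response element and 30.5% the GC box. The letters of the hypoxia core, present in 16.6% of windows, and of these ETS forms, present in 7.27% and 10.2%, were in neither window. Other forms of the ETS motif were not searched for.

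Library totals ran from 6061346 to 24039411 reads. Female hypoxia medulla replicate 3 stood apart, with the lowest total and 13379 genes detected against 15094 or more elsewhere. Female hypoxia cord replicate 2 stood apart in another way: its most abundant gene took 11.1% of its reads, against 1.55% to 7.12% in the other libraries. Values that move without either library are given both ways below. Group means of depth differed: female hypoxia cord libraries averaged 17770000 ± 2821000 reads (SD, n = 5), against 10540000 ± 1922000 in female normoxia cord, 13230000 ± 2748000 in male normoxia cord and 10120000 ± 1552000 in male hypoxia cord. The medulla means were 20290000 ± 2495000 reads in male normoxia, 12320000 ± 1256000 in male hypoxia, 13490000 ± 2433000 in female normoxia and 13380000 ± 4938000 in female hypoxia. Mean depth was thus higher in the medulla than in the cord in every group but female hypoxia. The part of depth in the differences between regions, exposures and sexes was not tested.

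Levels are given as CPM, a gene's reads for every 1000000 counted reads of its library. They compare 1 gene across libraries, and not genes with each other, because gene length is not taken into account. Flt1, the high-affinity VEGF receptor, ran from 7.59 to 120.2 CPM in the 20 medulla libraries (46 to 1857 reads) and from 15.6 to 98.8 CPM in the 20 cord libraries (172 to 1968 reads). Kdr, the signalling VEGF receptor, ran from 2.00 to 28.5 CPM in the medulla (44 to 511 reads) and from 1.59 to 17.5 CPM in the cord (14 to 349 reads). Vwf ran from 7.53 to 95.4 CPM in the medulla and from 7.72 to 45.4 CPM in the cord. Each of these genes thus differed over 5-fold between libraries of the same region, by 15.8, 14.3 and 12.7 times in the medulla for Flt1, Kdr and Vwf, and by 6.31, 11.0 and 5.88 times in the cord. Tek varied far less, from 85.9 to 157 CPM in the medulla and from 84.9 to 153 CPM in the cord, a range of 1.83 and 1.81 times. Without female hypoxia medulla replicate 3, the lowest Flt1 value of the medulla was 8.36 CPM and its range 14.4 times. Without female hypoxia cord replicate 2, the cord ranges of Flt1 and Kdr were 3.38 and 4.13 times.

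The spread within groups was set beside that of all genes. In the medulla, the SD of log2 CPM within groups was 1.18 for Flt1, 1.04 for Kdr and 1.08 for Vwf, where the median of 14832 genes was 0.44, and these values lay at percentiles 92.0, 87.4 and 88.7 of all genes. For Tek it was 0.18, at percentile 7.90. In the cord the SDs were 0.61 for Flt1, 0.74 for Kdr and 0.72 for Vwf, at percentiles 72.6, 79.0 and 77.8, and 0.16 for Tek, at percentile 13.7. Without female hypoxia medulla replicate 3 the medulla SDs were 1.10, 1.08 and 1.10 for Flt1, Kdr and Vwf, at percentiles 92.8, 92.4 and 92.9, and that of Tek was 0.18, at percentile 21.6. Without female hypoxia cord replicate 2 the cord SDs were 0.40 for Flt1, at percentile 60.2, 0.57 for Kdr, at 71.1, 0.65 for Vwf, at 75.5, and 0.17 for Tek, at 15.4. Tek thus differed from the other three in spread, and whether its ID is that of the angiopoietin receptor could not be checked here, so that what is said of Tek holds for the ID.

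**Figure D1:**
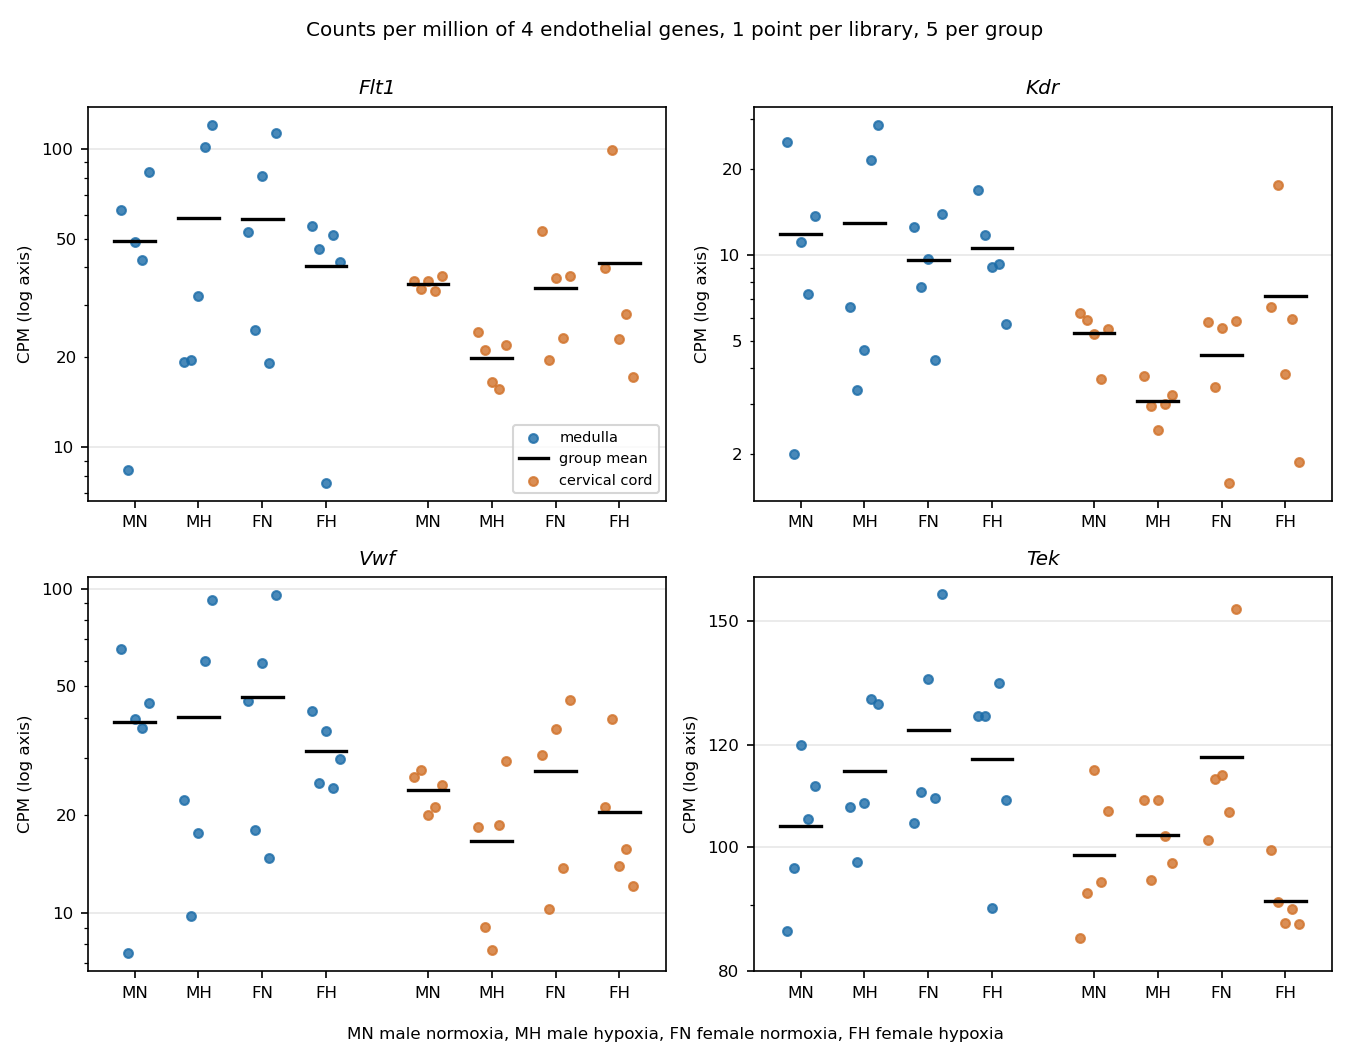
CPM of Flt1, Kdr, Vwf and Tek in the 40 libraries, with group on the x axis, CPM on a logarithmic y axis that differs by panel, 1 point per library and a line at the group mean. Flt1, Kdr and Vwf spread over many-fold ranges across the medulla libraries, while Tek stayed between 84.9 and 157 CPM. Some single medulla groups were narrower, as for Vwf in female hypoxia, at 24.3 to 41.8 CPM.

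Group means followed the region for Kdr. Its 4 medulla groups averaged 12.9 ± 11.4 CPM in male hypoxia, 11.8 ± 8.52 in male normoxia, 10.5 ± 4.14 in female hypoxia and 9.59 ± 3.82 in female normoxia (SD, n = 5 each). The 4 cord groups came next, at 7.15 ± 6.09 CPM in female hypoxia, 5.32 ± 0.993 in male normoxia, 4.45 ± 1.89 in female normoxia and 3.07 ± 0.480 in male hypoxia. Every medulla mean was above every cord mean, but each of the 7 neighbours in this order differed by less than the larger of their SDs.

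Vwf showed the same order of regions. The medulla means were 46.4 ± 33.0 CPM in female normoxia, 40.3 ± 34.8 in male hypoxia, 38.8 ± 20.7 in male normoxia and 31.5 ± 7.48 in female hypoxia (SD, n = 5 each). The cord means were 27.4 ± 15.0 CPM in female normoxia, 23.99 ± 3.19 in male normoxia, 20.5 ± 11.2 in female hypoxia and 16.6 ± 8.76 in male hypoxia. Again no neighbour in the order stood apart by more than the larger SD.

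For Flt1 the order of regions depended on single libraries. With all libraries it was male hypoxia medulla (58.4 ± 48.3 CPM), female normoxia medulla (58.1 ± 39.4), male normoxia medulla (49.1 ± 27.7) and then female hypoxia cord (41.4 ± 33.1), female hypoxia medulla (40.3 ± 19.0), male normoxia cord (35.3 ± 1.67), female normoxia cord (34.0 ± 13.2) and male hypoxia cord (19.9 ± 3.72; SD, n = 5 each). Of the 7 steps in this order, only the last, of 14.1 CPM down to the male hypoxia cord, exceeded the larger SD of its groups. Without female hypoxia medulla replicate 3 the mean of that group was 48.5 ± 5.77 CPM (SD, n = 4), and every medulla mean of Flt1 was then above every cord mean. With only female hypoxia cord replicate 2 left out, the female hypoxia cord was at 27.0 ± 9.58 CPM (SD, n = 4). Every medulla mean of Flt1 was above every cord mean in that case too.

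Tek means lay close together. They ran from 123 ± 22.5 CPM in female normoxia medulla through 117 ± 20.7 in female normoxia cord, 117 ± 18 in female hypoxia medulla, 114 ± 14.6 in male hypoxia medulla, 104 ± 13.2 in male normoxia medulla, 102 ± 6.63 in male hypoxia cord and 98.5 ± 12.1 in male normoxia cord to 90.7 ± 5.10 in female hypoxia cord (SD, n = 5 each). No neighbouring Tek means differed by more than the larger SD. Over TMM library sizes, which correct for composition, the female hypoxia cord mean was 98.05 ± 6.94 CPM.

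The first comparison asked whether cord isolations carried other amounts of these transcripts than medulla isolations of the same animals. Kdr was lower in the cord in 18 of 20 animals and Vwf in 18 of 20, and Tek was slightly lower in 17 of 20. Averaged over the 4 sex and exposure groups, Kdr was 2.12-fold lower in the cord and Vwf 1.62-fold lower, and Tek 1.10-fold lower. Flt1 was lower in 13 of 20 animals, and its average difference did not pass the test.

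In male normoxia animals, the medulla CPM of Kdr in replicates 1 to 5 were 24.8, 2.00, 11.1, 7.27 and 13.7, and the cord CPM 6.23, 5.93, 5.26, 3.67 and 5.49. In male hypoxia animals, Kdr was at 6.55, 3.34, 4.65, 21.5 and 28.5 CPM in the medulla and at 3.75, 2.95, 2.42, 3.00 and 3.23 CPM in the cord. The cord values of both groups were narrow, and the medulla values held both the lowest library, male normoxia replicate 2, and the highest, male hypoxia replicate 5. In female normoxia animals, Kdr was at 12.5, 7.69, 9.62, 4.29 and 13.9 CPM in the medulla and at 5.81, 3.43, 5.56, 1.59 and 5.85 CPM in the cord. In female hypoxia animals it was at 16.9, 11.7, 9.07, 9.26 and 5.69 CPM in the medulla and at 6.56, 17.5, 3.83, 5.94 and 1.88 CPM in the cord. The 2 exceptions to a lower cord value of Kdr were male normoxia replicate 2, with its low medulla library, and female hypoxia replicate 2, with the highest cord library.

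The clotting factor gene Vwf had the same exceptions. In male normoxia animals it was at 65.3, 7.53, 39.7, 37.1 and 44.3 CPM in the medulla and at 26.2, 27.5, 20.1, 21.3 and 24.9 CPM in the cord, in the order of replicates 1 to 5. In male hypoxia animals, Vwf was at 22.3, 9.80, 17.7, 59.8 and 92.2 CPM in the medulla and at 18.4, 9.09, 7.72, 18.6 and 29.4 CPM in the cord. All 5 male hypoxia animals had the lower value in the cord, although the groups overlapped. In female normoxia animals, Vwf was at 45.0, 17.99, 58.9, 14.8 and 95.4 CPM in the medulla and at 30.7, 10.3, 36.9, 13.7 and 45.4 CPM in the cord, and in female hypoxia animals at 41.8, 25.2, 36.3, 24.3 and 29.9 CPM in the medulla and at 21.1, 39.6, 14.0, 15.8 and 12.1 CPM in the cord. Among females, the second hypoxia animal was the only one with more Vwf in the cord.

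**Figure D2:**
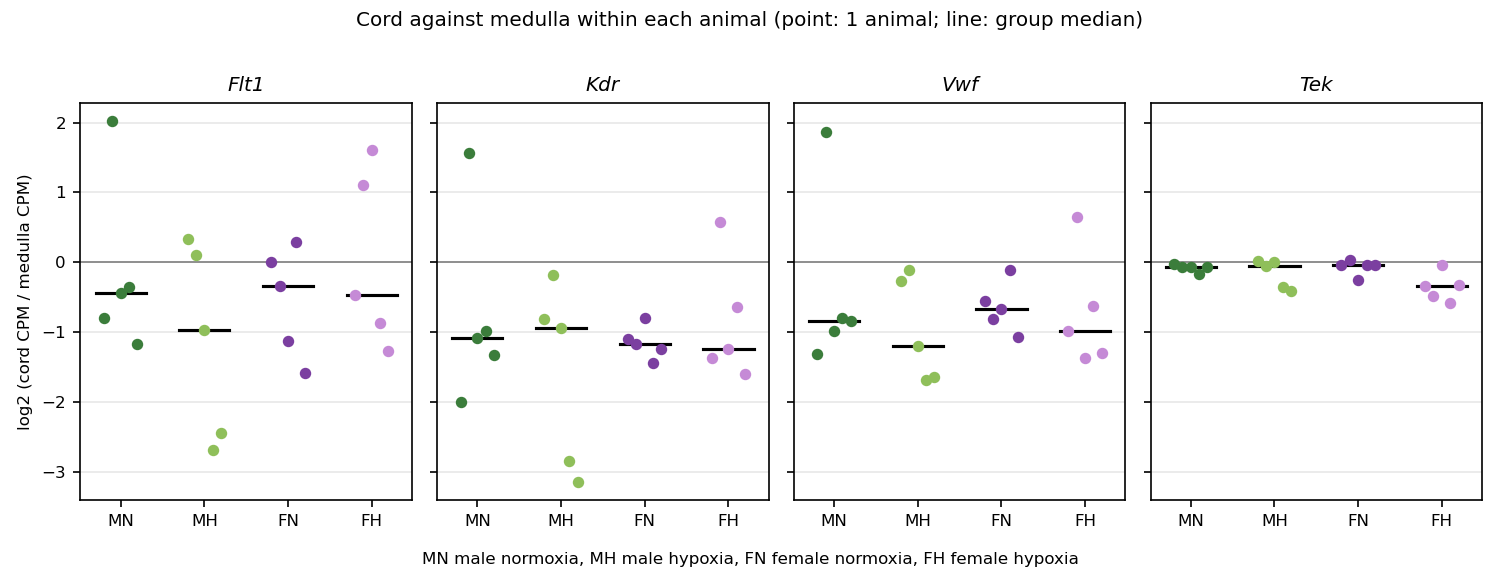
Log2 ratio of cord CPM to medulla CPM for Flt1, Kdr, Vwf and Tek, with 1 point per animal, a short line at the group median, and the grey line at equal levels. For Kdr and Vwf 18 of 20 points lie below that line each, for Flt1 13 and for Tek 17, with Tek ratios between 0.667 and 1.02.

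Tested with each animal as a block, the mean cord-minus-medulla difference passed the test for 3 of the 4 genes, all lower in the cord, where 25.2% of all genes tested were called in either direction and 14.6% were called lower. For Kdr the log2 fold change was -1.08 (SE 0.23, edgeR adjusted p = 0.00134). For Vwf the log2 fold change was -0.69 (SE 0.19, edgeR adjusted p = 0.00822). For Tek it was -0.14 (SE 0.04, edgeR adjusted p = 0.0256), and for Flt1 -0.46 (SE 0.24, edgeR adjusted p = 0.187). The median over all 14832 genes was 0.00. Kdr and Vwf stayed called whichever of the 20 animals was left out, with edgeR adjusted p values of up to 0.00378 and 0.0195. Tek lost its call without male hypoxia replicate 4 (edgeR adjusted p = 0.0567) or replicate 5 (0.0523), without the filter on low counts (0.0601) and without the animal block (0.0796), whereas Flt1 was called with limma voom and quality weights (adjusted p = 0.0402).

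Within single groups fewer of the 4 genes were called. Kdr was the member called in male hypoxia (log2 fold change -1.61, SE 0.48, edgeR adjusted p = 0.0418), with 1 of 4 genes called against a background of 8.2%. That call was lost without male hypoxia replicate 4 (edgeR adjusted p = 0.227) or replicate 5 (0.281), the animals with 2 of the 3 highest medulla levels of Kdr, and in 9 of the 20 fits that each left out 1 animal. In female hypoxia the called member was Tek, 1 of 4 against a background of 25.2%, with a log2 fold change of -0.24 (SE 0.09, edgeR adjusted p = 0.0478). That background depended on the libraries in the fit: with only the libraries compared, edgeR called 86 of 13337 genes.

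The ID named Tek was at 127, 127, 89.6, 134 and 109 CPM in female hypoxia medulla and at 99.5, 90.6, 87.3, 89.5 and 87.0 CPM in female hypoxia cord. The groups overlapped through the medulla library of replicate 3 alone, the one with the lowest depth, and all 5 animals had the lower Tek value in the cord. Without that animal the edgeR adjusted p for Tek was 0.0281, and it was 0.0930, 0.143 and 0.104 without replicates 2, 4 and 5. In all, 10 of the 20 fits that each left out 1 animal lost the call. It was also lost without the filter on low counts (edgeR adjusted p = 0.128), without the animal block (0.120), with only the libraries compared (0.303) and with limma voom (0.0527).

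In male normoxia 0 of 4 genes were called, against 7.11% of all genes, and in female normoxia 0 of 4 against 8.1%, with edgeR. The counts at an unadjusted p under 0.05 were 0 and 1 of the 4, DESeq2 called 0 and 1, and voom called 1 and 1. The log2 fold changes of Kdr, -0.82 (SE 0.46) in male normoxia and -1.17 (SE 0.45) in female normoxia, and those of Vwf, -0.47 (SE 0.38) and -0.69 (SE 0.36), pointed the same way as the mean. Without male normoxia replicate 2, the animal with low medulla values, Kdr was at -1.33 and Vwf at -0.97 on the log2 scale in male normoxia, with edgeR adjusted p values of 0.0562 and 0.0567.

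Whether the regional difference itself differed by exposure was tested as an interaction. None of the 4 genes was called in males, where 0.0% of all genes were called, or in females, where 21.1% were, and the count at an unadjusted p under 0.05 was 0 of 4 in either sex with edgeR. The count was also 0 with DESeq2 and with voom. Over all genes in males, edgeR gave 345 unadjusted p values under 0.05, DESeq2 called 2 genes and voom called 3. The interaction estimates carried wide errors: on the log2 scale Kdr was at -0.80 (SE 0.66) in males and 0.45 (SE 0.63) in females, and Flt1 at -0.94 (SE 0.70) and 0.69 (SE 0.68).

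The next question was whether gestational hypoxia went along with other endothelial transcript levels in the adult offspring. With edgeR, DESeq2 or voom, hypoxia against normoxia called 0 of the 4 genes in each sex and region. Of all genes, edgeR called 0.0% in the male cord and 32.8% in the female cord, and for the medulla 0.0% in males and 0.0% in females. With edgeR, 1 of 4 genes had an unadjusted p under 0.05 in the male cord, and 0 of 4 in each of the other comparisons. Over all genes in the male cord, male medulla and female medulla, edgeR gave 841, 122 and 2180 unadjusted p values under 0.05, DESeq2 called 1, 0 and 60 genes, and limma voom called 0, 0 and 1.

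The gene with the unadjusted p under 0.05 was Flt1 in the male cord. Its 5 normoxia libraries were at 36.0, 33.9, 36.1, 33.3 and 37.3 CPM and its 5 hypoxia libraries at 24.3, 21.1, 16.5, 15.6 and 22.1 CPM, in the order of replicates 1 to 5. Every hypoxia library lay below every normoxia library for Flt1, but the share of all genes that separated in this way was not counted. These 2 groups of Flt1 were the narrowest of its 8. The fitted log2 fold change of Flt1 was -0.84 (SE 0.37), with an unadjusted p of 0.0319 and an edgeR adjusted p of 0.764, so the difference did not pass the test over all genes. When the fit held the 10 libraries compared only, the SE fell to 0.13 and the edgeR adjusted p was 0.240, and over 7 other ways of fitting it ran from 0.240 to 1. Kdr in the male cord stood at -0.81 (SE 0.45) on the log2 scale, with an edgeR adjusted p of 0.764, and Tek at 0.04 (SE 0.11).

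In the female cord the values of Flt1 and Kdr depended on 1 library. Flt1 was at 52.9, 19.6, 37.0, 23.2 and 37.5 CPM under normoxia and at 39.8, 98.8, 23.1, 28.0 and 17.2 CPM under hypoxia. The hypoxia library of replicate 2 lay above all others, and the remaining 4 fell within the normoxia range or below it. The log2 fold change of Flt1 was 0.48 (SE 0.36, edgeR adjusted p = 0.326), and without that library it was -0.22 (edgeR adjusted p = 0.535). For Kdr it was 0.88 (SE 0.44, edgeR adjusted p = 0.129), and without that library 0.14 (edgeR adjusted p = 0.800), whereas without female hypoxia cord replicate 5, the lowest of its group, it was 1.12 (edgeR adjusted p = 0.0354). Tek stood at -0.22 (SE 0.11, edgeR adjusted p = 0.118) and at -0.26 without that library, and ran from -0.27 to -0.11 when each of the 20 cord libraries was left out in turn. Vwf stood at -0.24 (SE 0.40, edgeR adjusted p = 0.682) and at -0.68 without that library (edgeR adjusted p = 0.184). In that library 1 gene took 11.1% of the reads, and the part of this in the values was not tested. Depth differed between these groups too, at 17770000 against 10540000 reads, and its part in the values was not tested.

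The medulla gave no call and wide errors. The hypoxia-minus-normoxia log2 fold changes were 0.29 (SE 0.63) for Flt1, 0.17 (SE 0.59) for Kdr and 0.10 (SE 0.59) for Vwf in males, and -0.56 (SE 0.63), 0.12 (SE 0.59) and -0.53 (SE 0.59) in females. A log2 difference of 1 lies within 2 of these standard errors, so that differences of this size could go uncalled for the 3 genes in the medulla. For Tek they were smaller, with 0.17 (SE 0.12) in males and -0.08 (SE 0.12) in females. Without the shallow female hypoxia medulla library, the female values were -0.29 for Flt1, 0.12 for Kdr, -0.65 for Vwf and -0.03 for Tek. With voom the male medulla values of Flt1, Kdr and Vwf had the opposite sign, at -0.28, -0.18 and -0.46.

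The interaction of sex and exposure called 0 of 4 genes in the cord, against 23.2% of all genes, and 0 of 4 in the medulla, against 0.0%, with edgeR. In the cord, 2 of the 4 had an unadjusted p under 0.05: Flt1 with a log2 difference of 1.32 (SE 0.51, edgeR adjusted p = 0.0664) and Kdr with 1.69 (SE 0.63, edgeR adjusted p = 0.0553), the female response being the more positive. DESeq2 called Kdr, with an adjusted p of 0.0308. Without female hypoxia cord replicate 2 the estimates fell to 0.62 for Flt1 and 0.95 for Kdr, with edgeR adjusted p values of 0.190 and 0.174, and both genes were called without replicate 3 (0.0474 and 0.0447) or replicate 5 (0.0270 and 0.0171) of that group. In the medulla the count at an unadjusted p under 0.05 was 0 of 4 with edgeR, and voom and DESeq2 each called 0 of 4. Over all genes of the medulla, 879 had an unadjusted p under 0.05 with edgeR, DESeq2 called 2 and voom called 1.

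Between the sexes, 2 of the 4 genes were called in the hypoxia cord, against a background of 19.6%, and both VEGF receptors were higher in females. The log2 fold change was 1.22 for Flt1 (SE 0.37, edgeR adjusted p = 0.0252) and 1.38 for Kdr (SE 0.45, edgeR adjusted p = 0.0351), while Vwf stood at 0.45 (SE 0.40) and Tek at -0.06 (SE 0.11), neither called. In male hypoxia cord Flt1 was at 15.6 to 24.3 CPM and Kdr at 2.42 to 3.75 CPM. The female hypoxia cord values of both genes overlapped those of males and ranged wider, from 17.2 to 98.8 CPM for Flt1 and from 1.88 to 17.5 CPM for Kdr, with replicate 2 the highest in each. Without that library the log2 fold changes fell to 0.52 for Flt1 and 0.65 for Kdr, and the edgeR adjusted p values were 0.164 and 0.244. With limma voom and quality weights, which give less weight to libraries that deviate, they were 0.57 and 0.48, with adjusted p values of 0.227 and 0.507. Of 20 fits that each left out 1 cord library, the call was lost in 3 for Flt1 and in 6 for Kdr. The groups also differed in depth, at 17770000 and 10120000 reads, and its part in this difference was not tested.

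No member was called between the sexes elsewhere with edgeR, DESeq2 or limma voom, in the normoxia cord (background 6.56%), the normoxia medulla (0.0707%) or the hypoxia medulla (0.0777%). Unadjusted p values under 0.05 with edgeR numbered 0, 1 and 0 among the 4 genes. The gene was Tek in the normoxia medulla, where females were at 123 ± 22.5 CPM and males at 104 ± 13.2 CPM (SD, n = 5 each), with a log2 fold change of 0.27 (SE 0.12, edgeR adjusted p = 1.00).

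**Figure D3:**
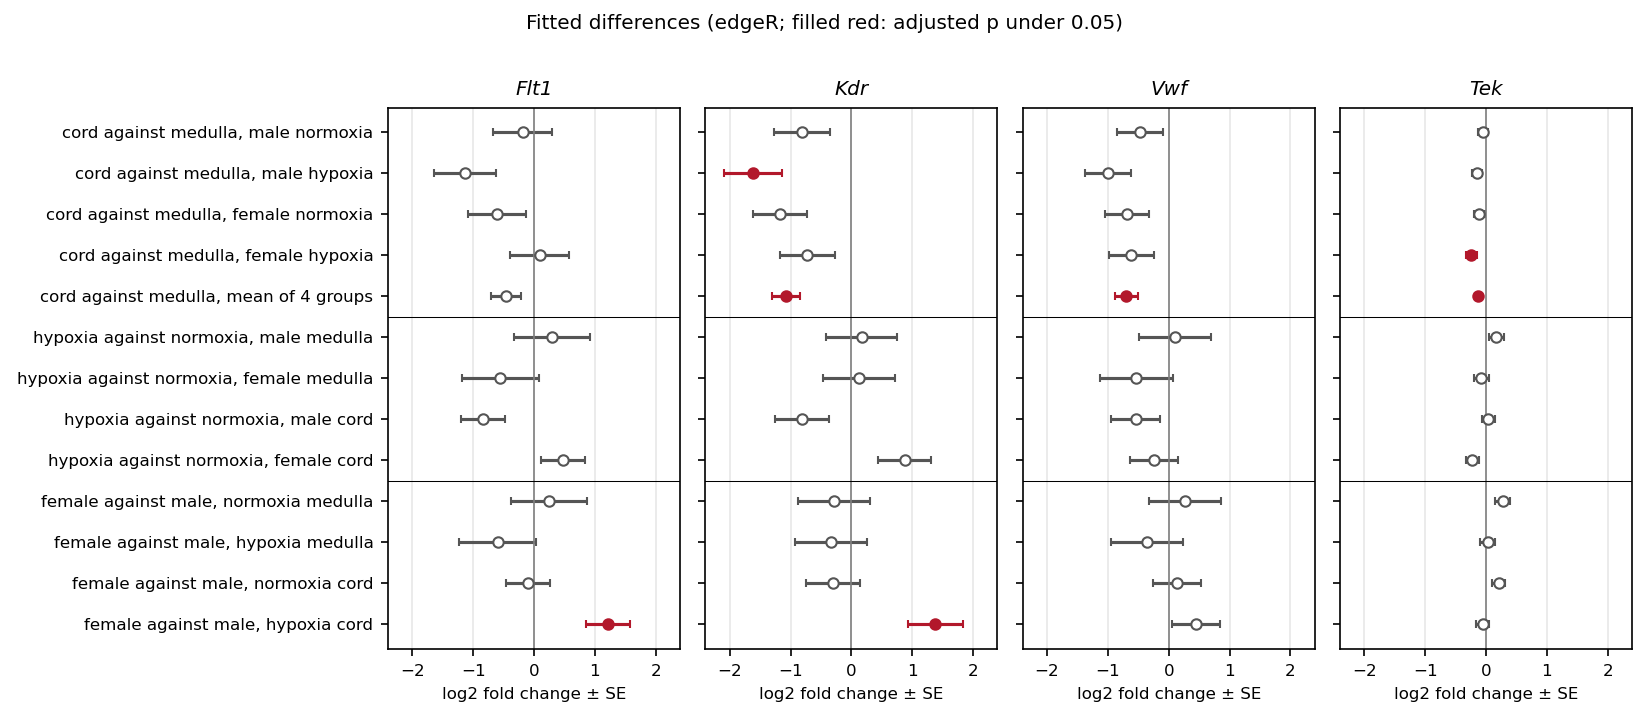
Fitted log2 fold changes with standard errors for Flt1, Kdr, Vwf and Tek in 13 comparisons, as rows, of region within animals, exposure and sex; filled red points have an edgeR adjusted p under 0.05. Kdr and Vwf lie left of 0 in every cord against medulla row, exposure rows hold no filled point, and Flt1 and Kdr are filled at 1.22 and 1.38 in the female against male row of the hypoxia cord.

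Between animals, Flt1, Kdr and Vwf rose and fell together. Deviations of log2 CPM from the group means were correlated for the 6 pairs of genes within each region, 12 correlations over 20 libraries each. Permutations moved the deviations freely among the 20 libraries, although groups differed in spread and animals could share a litter. The permutation p values are therefore approximate and may be too small. In the medulla, Kdr and Vwf had the closest relation, with Pearson r = 0.907 (permutation p = 1e-05, the smallest that 100000 permutations can give, Benjamini-Hochberg adjusted over the 12 p = 6e-05) and Spearman rho = 0.872 (adjusted permutation p = 0.00012). Flt1 followed Kdr at r = 0.776 and rho = 0.788 and Vwf at r = 0.790 and rho = 0.782 in the medulla, each with an adjusted permutation p of 0.000192 for r. In the cord, r was 0.888 for Flt1 and Kdr (adjusted permutation p = 6e-05), 0.736 for Flt1 and Vwf (0.000192) and 0.733 for Kdr and Vwf (0.00032), with rho of 0.832, 0.752 and 0.815. Leaving out the 2 libraries farthest from the median of the first gene gave r of 0.672 to 0.895 for these 3 pairs over both regions. Without female hypoxia cord replicate 2 the cord r was 0.786, 0.664 and 0.639 for these pairs. Without the shallow female hypoxia medulla library, the medulla r was 0.882 for Flt1 and Kdr, 0.949 for Flt1 and Vwf and 0.911 for Kdr and Vwf. The total of a library scales all its genes and is shared by each pair.

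Tek had lower correlations with the other genes. In the medulla its r was 0.687 with Flt1 (adjusted permutation p = 0.00144, rho 0.671), 0.581 with Vwf (0.0113, rho 0.510) and 0.481 with Kdr (0.0429, rho 0.462 with an adjusted p of 0.0560). Without the 2 libraries farthest from the median the medulla values were 0.729, 0.538 and 0.392, and without female hypoxia medulla replicate 3 they were 0.684, 0.622 and 0.497. Scaled to column totals in place of TMM sizes, the relation with Flt1 held (r = 0.725), and those with Vwf (r = 0.477, adjusted permutation p = 0.0528) and Kdr (r = 0.41, adjusted permutation p = 0.0964) did not pass. In the cord the r of Tek was 0.258 with Flt1, 0.347 with Kdr and 0.293 with Vwf, with adjusted permutation p values of 0.261, 0.160 and 0.229. The deviations also differed in size: where Flt1 deviated by up to 2.20 below its group mean in log2 CPM, Tek deviated by at most 0.41 in any library. Whether the correlations differ between regions was not tested.

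**Figure D4:**
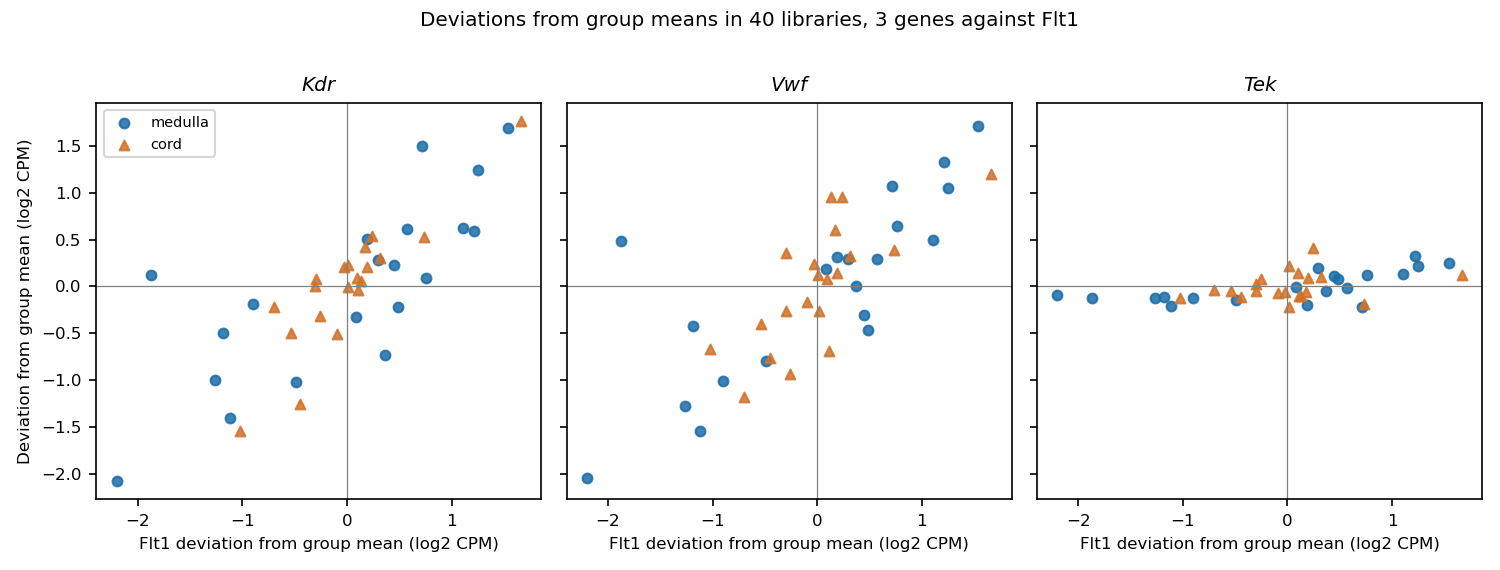
Deviations from group means in log2 CPM of Kdr, Vwf and Tek (y axis) against those of Flt1 (x axis), 1 point per library, with circles for medulla and triangles for cord. Kdr and Vwf rise with Flt1 in both regions, while Tek stays within 0.41 of its group means.

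Among 14831 other genes, the likeness of these 4 to each other was ranked by Pearson r of deviations from group means over all 40 libraries, as a description. Vwf was at rank 11 of the genes most like Kdr and Kdr at rank 16 of those most like Vwf, both at r = 0.851, where the median gene stood near 0. Flt1 was at rank 57 for Kdr (r = 0.798) and at rank 80 for Vwf (r = 0.771). Among the genes most like Flt1, Kdr was at rank 86 and Vwf at rank 118. Tek was at rank 585 for Flt1 (r = 0.532), 1158 for Kdr (r = 0.426) and 590 for Vwf (r = 0.468). From the side of Tek, Flt1 was at rank 48, Vwf at rank 133 and Kdr at rank 223 of the genes most like it. Without female hypoxia medulla replicate 3, Vwf was at rank 33 for Kdr and Kdr at rank 32 for Vwf, and Flt1 was at rank 18 for Kdr and rank 11 for Vwf. For Flt1, Kdr was then at rank 44 and Vwf at rank 37. Tek was at rank 551 for Flt1, 1340 for Kdr and 682 for Vwf, and for Tek, Flt1 was at rank 70, Vwf at 111 and Kdr at 228. The IDs closest to the mean standardised deviation of the 4 genes were ENSRNOG00000047493 (r = 0.926), with a median of 19.5 CPM and a range of 3.87 to 87.2 CPM, and ENSRNOG00000003098 (r = 0.924), with a median of 9.05 CPM and a range of 1.33 to 34.6 CPM. No symbol was available for either.

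The regions of 1 animal were also compared by deviations of log2 CPM from the group means, over 20 animals and 4 genes. The share of all genes that would pass this test was not computed. Its permutations also ran freely across groups, so that these p values are approximate too. Taken over all genes, the deviations of the regions of an animal correlated positively in 20 of 20 animals, at 0.0673 to 0.424. An animal high for its group in the medulla tended to be high for its group in the cord for Tek (r = 0.619, rho = 0.561, adjusted permutation p = 0.0108 for r and 0.0222 for rho) and for Vwf (r = 0.551, rho = 0.586, adjusted permutation p = 0.0237 and 0.0222). For Flt1 (r = 0.238, rho = 0.290, adjusted permutation p = 0.315 and 0.212) and Kdr (r = 0.320, rho = 0.397, adjusted permutation p = 0.224 and 0.111) the relation did not pass the test. Leaving out the 2 animals farthest from the medulla median gave r of 0.615 for Tek, 0.660 for Vwf, 0.180 for Flt1 and 0.454 for Kdr.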

How the data were processed

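The authors deposited 1 table of raw read counts per Ensembl rat gene ID, as whole numbers, for 40 libraries. The submitters' processing notes name build rn6 and the tools HTSeq, TopHat2 2.1 and edgeR, without their roles. For annotation release, strand and filters the sources used here give nothing, and overlapping or antisense genes may share reads. No column was left out, 0 rows named no gene, and no pair of libraries was identical. Columns were matched to labels by name.

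Counts were tested with the edgeR 4.0.16 quasi-likelihood F test (R 4.3.3), with TMM factors, filterByExpr with a minimum count of 10, and Benjamini-Hochberg adjustment over all genes, called under 0.05. All 4 genes passed the filter in every fit reported. Region was fitted over 40 libraries with the animal as a block, since both regions come from the same animals by the series design and labels (deviations over all genes correlated in 20 of 20 pairs, at 0.0673 to 0.424). Exposure and sex were fitted over the 20 libraries of a region, without a block. Standard errors were derived from each F statistic. Log2 CPM for spread and correlations used TMM and a prior count of 2. The text names the 4 members and, of the genes most like them, the 2 highest by correlation, since IDs had no symbols; the symbol lists planned for other endothelial, microglial and other cell markers could not be applied, as 0 of 47357 rows of the reference table carried an Ensembl ID. The fitting code was run on counts simulated from fitted negative binomial models. These do not model single deviating libraries, so that run does not bear on calls that depend on 1 library. Alternatives were RLE factors, no filter, DESeq2 1.42.0, limma 3.58.1 voom with quality weights, other libraries in the fit, the block, and leaving libraries out. Correlations between regions, ranks, and levels, spread and cord correlations without a library that stood apart were added after seeing the data. Members, lists and tests were chosen with earlier results of these data known.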

Additional observations from a re-analysis of the deposited data

Results flagged for a closer look

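Among 32 sets of 5 libraries (4 genes in 8 groups), a library was set apart when its gap to the nearest other library exceeded 0.71 of the group's range; chance alone flags about 1 in 20 such sets. Flt1 in female hypoxia medulla replicate 3, at 7.59 CPM, lay below the other 4 libraries at 41.8 to 54.9 CPM. This is the library of lowest depth. Flt1 in female hypoxia cord replicate 2, at 98.8 CPM, lay above the other 4 at 17.2 to 39.8 CPM. Tek in female normoxia cord replicate 5, at 153 CPM, lay above the other 4 at 101.3 to 114 CPM, and the medulla library of that animal, at 157 CPM, was the highest of the medulla. Tek in female hypoxia cord replicate 1, at 99.5 CPM, lay above the other 4 at 87.0 to 90.6 CPM. Over TMM library sizes the first 3 of these 4 remained set apart. Tek in female hypoxia cord replicate 1 did not: it was at 104.2 CPM, below replicate 2 at 106.4 CPM. Kdr and Vwf in female hypoxia cord then were, with their highest libraries at 20.6 and 46.5 CPM.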

How the results depend on the processing

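The lower Kdr and Vwf of the cord, averaged over the groups, kept their direction and their call in every fit run. Other counts of called genes among the 4 were small and moved. For cord against medulla, voom called 1 in male normoxia; DESeq2 called 2, voom 2 and a fit of only the libraries compared 0 in male hypoxia; these called 1, 1 and 2 in female normoxia; and 0 were called in female hypoxia with no filter on low counts, with voom, with no replicate block and with only the libraries compared. DESeq2 called 1 for sex by exposure in the cord. Females against males in the hypoxia cord gave 0 with all 40 libraries, 0 with voom, 0 with only the libraries compared and 1 with a replicate block. Leaving out each animal or library in turn gave 0 to 2 calls for male hypoxia region, 0 to 1 for female hypoxia region, 0 to 1 for exposure in the female cord, 0 to 2 for sex by exposure in the cord and 0 to 2 for sex in the hypoxia cord. Over column totals the covariation of Kdr and Tek, medulla, fell to 0.41, and the covariation of Vwf and Tek, medulla, to 0.477, and neither passed any longer.

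Differences that were not called changed sign, mostly with voom, and the cause was not tested. With voom these were Flt1 for exposure in the female cord (-0.041), Vwf for sex in the normoxia cord (-0.27), Flt1, Kdr and Vwf for exposure in the male medulla (-0.28, -0.18 and -0.46), the same genes for sex by exposure in the medulla (0.15, 0.26 and 0.042), Kdr for sex in the normoxia medulla (0.35), and Flt1, Kdr and Vwf for sex in the hypoxia medulla (0.58, 0.61 and 0.43). With a replicate block Kdr for sex by exposure in the medulla was 0.020; labels do not tie those numbers to litters.

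Leave-one-out ranges that crossed 0 were, for region, -0.67 to 0.068 for Flt1 in male normoxia and -0.25 to 0.45 in female hypoxia, and -0.29 to 0.27 for Vwf by exposure in females. For exposure they were -0.0095 to 0.10 for Tek in the male cord, -0.22 to 0.69 for Flt1 and -0.68 to 0.027 for Vwf in the female cord, -0.18 to 0.57 for Flt1, -0.38 to 0.65 for Kdr and -0.49 to 0.38 for Vwf in the male medulla, and -0.022 to 0.32 for Kdr and -0.10 to 0.010 for Tek in the female medulla. For sex by exposure they were -0.14 to 0.60 for Vwf in the cord and -0.53 to 0.53 for Kdr in the medulla. For sex they were -0.34 to 0.023 for Flt1 and -0.14 to 0.33 for Vwf in the normoxia cord, -0.12 to 0.53 for Flt1, -0.56 to 0.20 for Kdr and -0.16 to 0.55 for Vwf in the normoxia medulla, and -0.54 to 0.26 for Kdr and -0.58 to 0.27 for Vwf in the hypoxia medulla. For region both libraries of an animal were left out together. Kdr had as few as 14 reads in a library.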

Other observations

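Counts of 2 genes within a library can be set against each other without scaling. The Flt1 to Kdr ratio of counts ran from 4.72 to 14.6 in the cord, with a median of 6.58, and from 2.52 to 8.43 in 19 medulla libraries. In female hypoxia medulla replicate 3 it was 0.836, and the median with that library was 4.42. The ratio was higher in the cord in 16 of 20 animals. The Vwf to Flt1 ratio of that library was 4.78, where the other medulla libraries lay at 0.474 to 1.15, while its Vwf to Kdr ratio of 4.00 lay within their 2.15 to 6.88. In that library Flt1 was thus low against both Kdr and Vwf. The Vwf to Kdr ratio was higher in the cord in 18 of 20 animals, with medians of 4.58 in the cord and 3.42 in the medulla.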
